A study of Mus musculus with 8 samples.

Results

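Gene expression in mouse embryonic stem cells in which Fbxl19 was targeted by 1 of 2 short hairpin RNAs was compared with that in cells with a control hairpin, and the changes common to both hairpins are described across all genes. The comparison takes 6 of the 8 arrays of the series: 2 of J1 cells with a control hairpin (shControl), 2 with Fbxl19 shRNA1 and 2 with Fbxl19 shRNA2, chosen by their titles. J1 is an established mouse embryonic stem cell line, and the labels describe it as grown on gelatin, in serum with recombinant leukemia inhibitory factor (LIF). No label gives the vector, the time after delivery, the hairpin sequences or a drug selection, so all 3 groups share the line and the medium and no difference other than the hairpin is labelled. The remaining 2 arrays, of J1 cells on day 4 of differentiation, are in no tested comparison. They enter the estimate of spread and the choice of each gene's probe set, and their means are given beside a few genes. The description field of the knockdown arrays runs on from Fbxl19 to higher-numbered Fbxl genes; the titles and source names all give Fbxl19 and were used.

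Fbxl19 is an F-box protein, the substrate-binding part of an SCF ubiquitin ligase, and it carries a CXXC zinc finger that binds unmethylated CpG-rich DNA such as CpG islands. It has been linked in embryonic stem cells to Rnf20, the ligase that adds ubiquitin to histone H2B, a mark of transcribed genes. The cell-cycle inhibitor p21, encoded by Cdkn1a, and other targets of the transcription factor p53 respond to DNA damage and stress and are also expressed at some level in unstressed stem cells.

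Fbxl19 had no annotated probe set, so the extent of the knockdown is not known from these arrays and was not checked against the hairpin labels. The stem cell identity of the 6 arrays was checked with 12 markers, all measured. Pou5f1, the Oct4 gene, lay at 12.31 and 12.57 on the control arrays and at 12.41 to 12.49 on the 4 knockdown arrays (log2 expression units throughout), and the markers had a median change of -0.02. Of 19 fibroblast markers, which would report feeder cells, none was called, and their mean log2 level lay between 4.87 and 5.02 on all 6 arrays. The array labelled shControl replicate 2 stood apart in its distribution, and the 2 control arrays differed from each other with an SD across genes of 0.31, against 0.20 for shRNA1 and 0.22 for shRNA2. For the actin control probe sets, the signal at the 3' end minus that at the 5' end, which moves with RNA quality, was 0.604 and 0.544 on the control arrays and 0.702 to 0.757 on the knockdown arrays, so that it separated the groups, whereas that of Gapdh (0.175 and 0.256 against 0.177 to 0.270) did not. The part of RNA quality in the results below was not tested. No label says that replicates were separate cultures, and the spread behind each p-value may therefore be technical only.

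With the spread estimated from all 8 arrays, 9 of 12393 genes (0.0726%) passed a Benjamini-Hochberg adjusted p of 0.05 for the mean of both hairpins against the control hairpin, 7 of them higher (0.0565%) and 2 lower (0.0161%). At an unadjusted p of 0.05, 536 genes were higher and 507 lower. Taken alone against the same controls, shRNA1 gave 30 calls (0.242%) and shRNA2 0 (0.0%; 350 higher and 282 lower at an unadjusted p of 0.05, limma). The 9 genes included a p53 target of the cyclin family (Ccng1), an antiproliferative gene (Btg2) and 2 enzymes that process reactive carbonyls, sugars and epoxides (Dcxr and Ephx1), which were higher, and a growth factor (Fgf18) and a germ cell transcription factor (Dmrt1), which were lower. Without either control array, no gene passed, and without any 1 knockdown array between 1 and 4 did.

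Fgf18, a secreted fibroblast growth factor, had levels of 6.70 and 6.82 on the control arrays, 4.73 and 4.29 with shRNA1, and 5.71 and 5.16 with shRNA2. Every knockdown array lay below both control arrays, and the shRNA1 arrays were the lowest. The gene fell by 1.79 on the log2 scale (change of -1.79 ± 0.23, SE), a 3.45-fold decrease (adjusted p = 0.046), with -2.25 under shRNA1 and -1.33 under shRNA2. Dmrt1, a DM-domain transcription factor of the gonad and germ line, was at 8.89 and 8.85 on the control arrays, 7.55 and 7.69 with shRNA1, and 8.25 and 8.24 with shRNA2. Its groups did not overlap either, and it fell by 0.93 (-0.93 ± 0.11, SE; adjusted p = 0.035).

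Dcxr, the gene of dicarbonyl and xylulose reductase, was at 6.53 and 6.85 on the control arrays, 8.37 and 8.14 with shRNA1, and 7.97 and 7.94 with shRNA2. All 4 knockdown arrays were more than 1 log2 unit above the higher control array, and the rise was 1.42 ± 0.13 (SE), or 2.68-fold (adjusted p = 0.0107). Ephx1, the microsomal epoxide hydrolase, was at 6.57 and 6.43, then 7.80 and 7.65, then 7.44 and 7.56 in the same order of arrays. Its rise was 1.11 ± 0.12 (SE), or 2.16-fold (adjusted p = 0.0152), and again the groups were apart. Plxdc2, a transmembrane protein with a plexin domain, was at 4.24 and 4.30 in control cells against 4.94 to 5.27 in knockdown cells. It rose by 0.85 ± 0.11 (SE; adjusted p = 0.0474).

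Ccng1, which encodes cyclin G1, was at 10.17 and 9.95 on the control arrays, 11.38 and 11.25 with shRNA1, and 11.19 and 11.14 with shRNA2. The hairpins gave nearly the same level, and the rise was 1.18 ± 0.12 (SE), or 2.27-fold (adjusted p = 0.0122). The mean of its 3 probe sets gave 0.89. Btg2, a p53 target that restrains proliferation, was at 7.57 and 7.78 on the control arrays, 8.34 and 8.25 with shRNA1, and 9.04 and 8.85 with shRNA2. Its arrays did not overlap with the controls, but here shRNA2 gave the higher values, and the rise of the mean was 0.95 ± 0.12 (SE; adjusted p = 0.046). The hairpins did not differ for Btg2 past the threshold (difference of 0.65 between shRNA2 and shRNA1, adjusted p = 0.239).

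The remaining 2 of the 9 genes were carried mainly or wholly by shRNA1. Usp17la, a deubiquitinating enzyme gene, was at 3.61 and 3.36 on the control arrays, 7.59 and 7.01 with shRNA1, and 4.67 and 4.66 with shRNA2. All knockdown arrays were above the controls, whose mean lay under the lowest lower quartile of the arrays (3.79), so no size is given for the rise, which passed the test (adjusted p = 0.00206). The difference of shRNA2 from shRNA1, both above that quartile, was -2.64 (adjusted p = 0.00218). AF067061, a cDNA clone entry outside the rule for naming genes and picked out after its values were seen, was at 4.53 and 4.39 on the control arrays, 7.86 and 7.51 with shRNA1, and 4.62 and 4.35 with shRNA2. The shRNA2 arrays overlapped the controls, and the call for the mean (1.62 ± 0.14, SE; adjusted p = 0.00889) came from shRNA1 alone, with own changes of 3.22 under shRNA1 and 0.02 under shRNA2. Both genes are on the list of genes of the 2-cell embryo, of which 12 were measured: 10 had a mean change above 0 (49.1% of all genes did), and 4 lay higher on all knockdown arrays (9.53% of all genes).

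**Figure D1:**
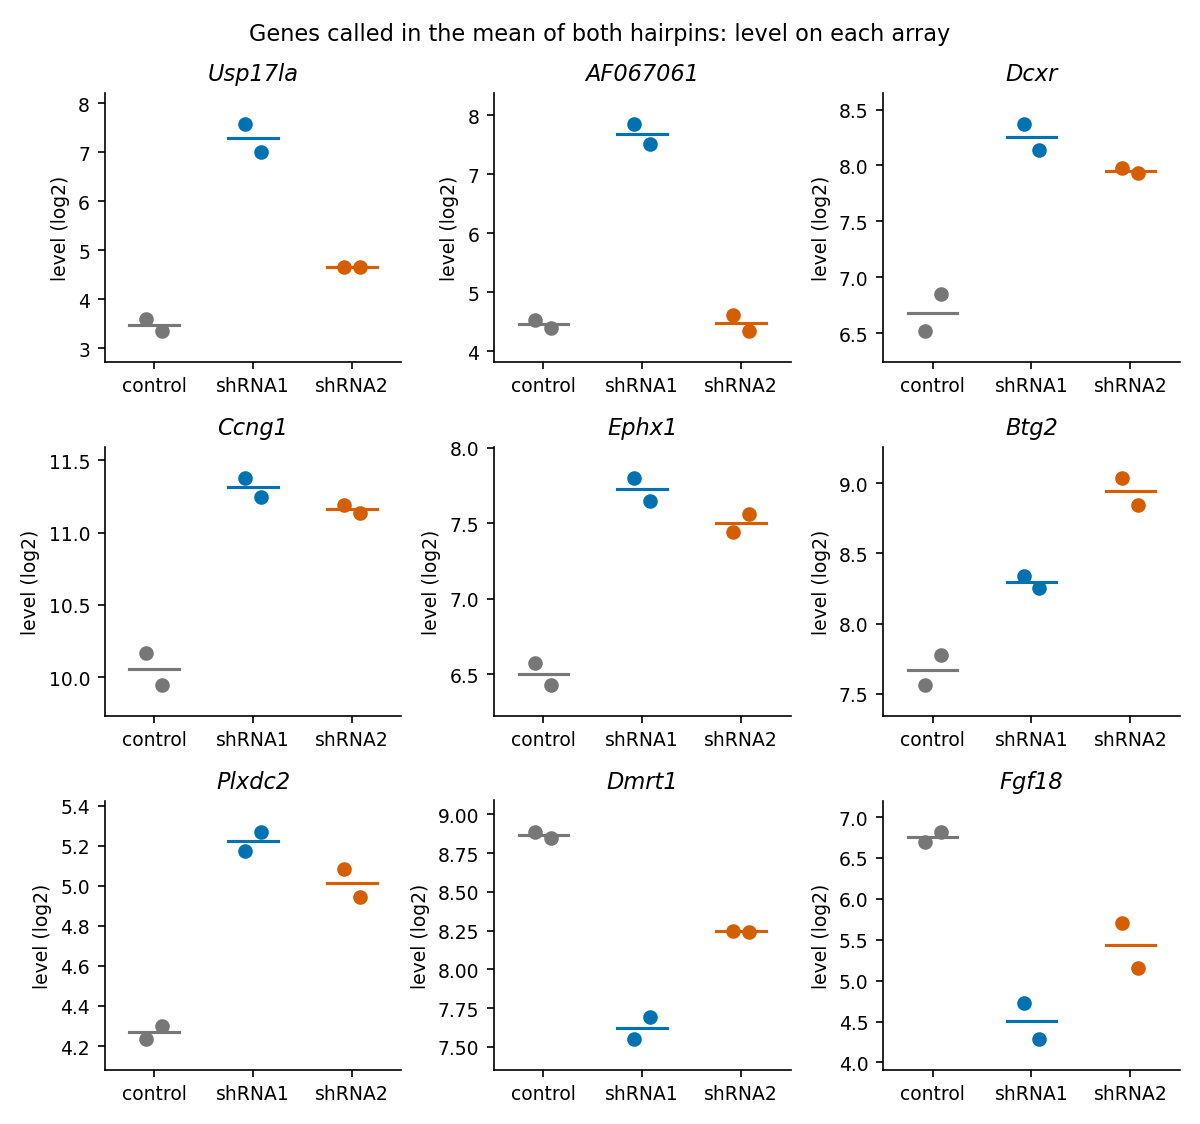
Log2 expression of the 9 genes called for the mean of both hairpins, with 1 point per array in the control hairpin, shRNA1 and shRNA2 groups. Dcxr, Ccng1 and Ephx1 sit about 1 log2 unit or more above the control with both hairpins, Fgf18 and Dmrt1 sit below it, and AF067061 leaves the control level with shRNA1 only.

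A fit to the 6 compared arrays alone leaves the day 4 arrays out of the estimate of spread. It called 54 genes (0.436%), 41 higher (0.331%) and 13 lower (0.105%), and these included all 9 genes above. The values of a gene are the same in both fits and only the error differs. Of the 54, 50 did not overlap between the 4 knockdown and the 2 control arrays, 38 of them higher and 12 lower. Over all genes, 9.53% lay higher on all 4 knockdown arrays and 10.6% lower. The changes ranged in size from 0.65 upward for rises and from -0.71 downward for falls, and 42 of the 54 were larger in size with shRNA1 than with shRNA2. In the 8-array fit the other 45 had adjusted p-values up to 0.616, so each gene is given below with both values, the 6-array value first. Without either control array the 6-array fit also called no gene.

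**Figure D2:**
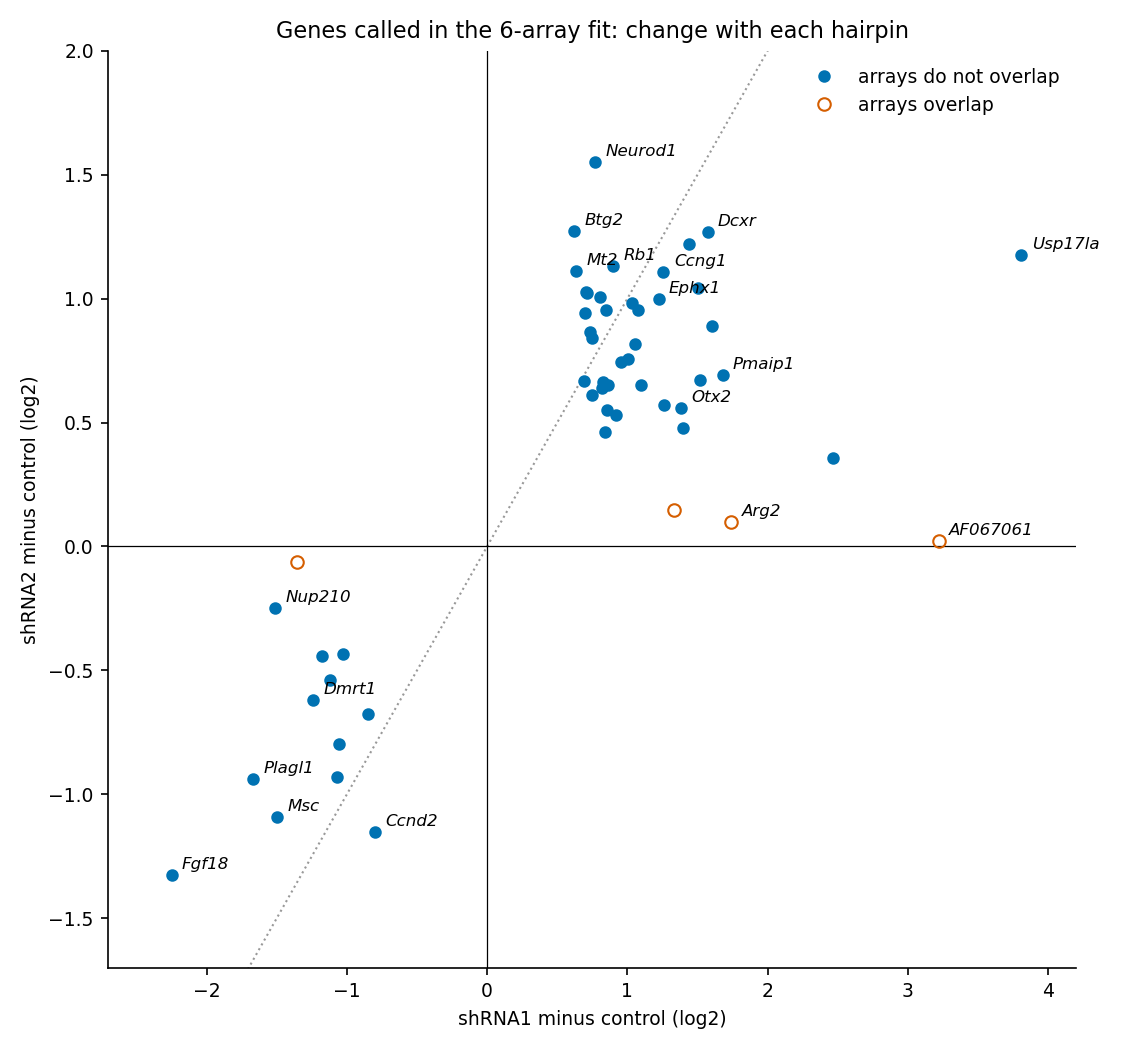
Log2 change against the control hairpin with shRNA1 (horizontal axis) and with shRNA2 (vertical axis) for the 54 genes called in the 6-array fit. Filled points are the 50 genes whose knockdown and control arrays do not overlap, open points are the 4 that do, and the dotted line marks equal change. The control means of 3 genes, Usp17la among them, lie under the lowest lower quartile of the arrays, so their positions are set against a near-background level. The changes share the control arrays, so the axes are not independent; most called genes, 42 of 54, lie further out on the shRNA1 axis, as Fgf18 at -2.25 and -1.33 does.

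Among 27 measured p53 targets of a list of 30, 5 were called higher in the 6-array fit and none lower: Ccng1, Btg2, Pmaip1, Cdkn1a and Perp. Over all genes, 0.331% were called higher in that fit. The list was chosen with earlier results of these arrays known and is no independent evidence of direction. Of the 27, 23 had a mean change above 0, where 49.1% of all genes did. On all 4 knockdown arrays, 15 were higher and 0 lower, against 9.53% and 10.6% of all genes. The median change of the list was 0.33 (0.25 under shRNA1 and 0.46 under shRNA2) against -0.00 over all genes, and it stayed between 0.27 and 0.35 when either control array was left out. Array by array, the median of the members relative to the control mean was -0.03 and 0.03 on the controls, 0.31 and 0.30 with shRNA1, and 0.50 and 0.40 with shRNA2.

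Pmaip1, which encodes the death-promoting BH3 protein Noxa, was at 6.46 and 6.50 on the control arrays, 7.95 and 8.37 with shRNA1, and 7.13 and 7.22 with shRNA2. The order was control, then shRNA2, then shRNA1, with no overlap, and the rise was 1.18 (adjusted p = 0.0111 and 0.0707). It was 1.68 under shRNA1 and 0.69 under shRNA2. In limma's test of shRNA2 against shRNA1, Pmaip1 passed in the 6-array fit only (adjusted p = 0.0466 and 0.206). Cdkn1a was at 8.36 and 8.42 on the control arrays, 9.19 and 9.08 with shRNA1, and 9.03 and 8.97 with shRNA2. The rise was smaller than that of cyclin G1 but even across the 4 arrays, at 0.68 or 1.60-fold (adjusted p = 0.0402 and 0.0917). Perp, an apoptosis-linked desmosomal membrane protein, was named after its values were seen: 7.12 and 7.14 on the control arrays against 7.74 to 8.26 on the knockdown arrays, with a rise of 0.87 (adjusted p = 0.0253 and 0.144).

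Other members of the list did not pass either fit. Ddit4, an inhibitor of mTORC1 signalling, had the largest mean difference, 1.77 ± 0.36 (SE; adjusted p = 0.0944 and 0.17). Its control arrays were 7.82 and 8.78, its shRNA1 arrays 9.34 and 10.48 and its shRNA2 arrays 9.86 and 10.58, without overlap. In each group the array numbered 2 was the higher. Ddit4 is also on the lists of glycolysis and hypoxia and of the integrated stress response. Plk2, a polo-like kinase, was 1.00 ± 0.23 (SE) higher on average (adjusted p = 0.12 and 0.248), and Trp53inp1 was 0.60 ± 0.15 (SE) higher (adjusted p = 0.0817 and 0.275). Mdm2, which encodes the ligase that degrades p53, overlapped between the groups, with 8.70 and 8.47 on the control arrays against 8.58 to 9.33 on the knockdown arrays.

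The promoters of the 2 called p53 targets with the fewest mismatches to a p53 response element are shown with that match in capitals. Each is 250 bases that end just before a RefSeq transcription start, taken 5′ to 3′ on the strand of the gene (GRCm38.p6). The Cdkn1a window is chr17:29090729-29090978 on the plus strand and belongs to the upstream of its 2 annotated starts. The Ccng1 window is chr11:40755287-40755536 on the minus strand.
Cdkn1a: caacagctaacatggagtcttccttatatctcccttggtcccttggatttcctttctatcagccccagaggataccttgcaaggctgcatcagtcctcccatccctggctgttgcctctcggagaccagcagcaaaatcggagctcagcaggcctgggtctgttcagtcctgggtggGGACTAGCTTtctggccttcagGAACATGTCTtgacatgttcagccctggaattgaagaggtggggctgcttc
Ccng1: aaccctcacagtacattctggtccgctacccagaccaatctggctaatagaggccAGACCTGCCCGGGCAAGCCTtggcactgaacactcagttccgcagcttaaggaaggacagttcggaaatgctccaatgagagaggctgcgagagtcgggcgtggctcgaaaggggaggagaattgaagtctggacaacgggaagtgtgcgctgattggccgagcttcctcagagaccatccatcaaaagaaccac

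The Cdkn1a match had 0 mismatches, with 12 bases between its half-sites, and lay 73 to 42 bases before the start. Matches were ranked by mismatches alone, without weight on the spacer. The marked half-site nearer the Cdkn1a start is also followed directly by tgacatgttc, left in lower case. That pair has no spacer and 1 mismatch. The Ccng1 match had 1 mismatch and no spacer, and lay 195 to 176 bases before the start. The element was searched as a pair of half-sites with up to 13 bases between them; because it reads the same on both strands, both were covered. Of 9887 tested genes with a window, 0.0708% held a match without mismatch and 0.951% a match with at most 1. Among the 39 calls of the 6-array fit with a window, 3 of 30 higher genes held such a match (Ccng1, Cdkn1a and Limch1) and 0 of 9 lower genes did. Of 19 members of the p53 list with a window, 3 did (Ccng1, Cdkn1a and Polk). A match says only that these letters are present.

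**Figure D3:**
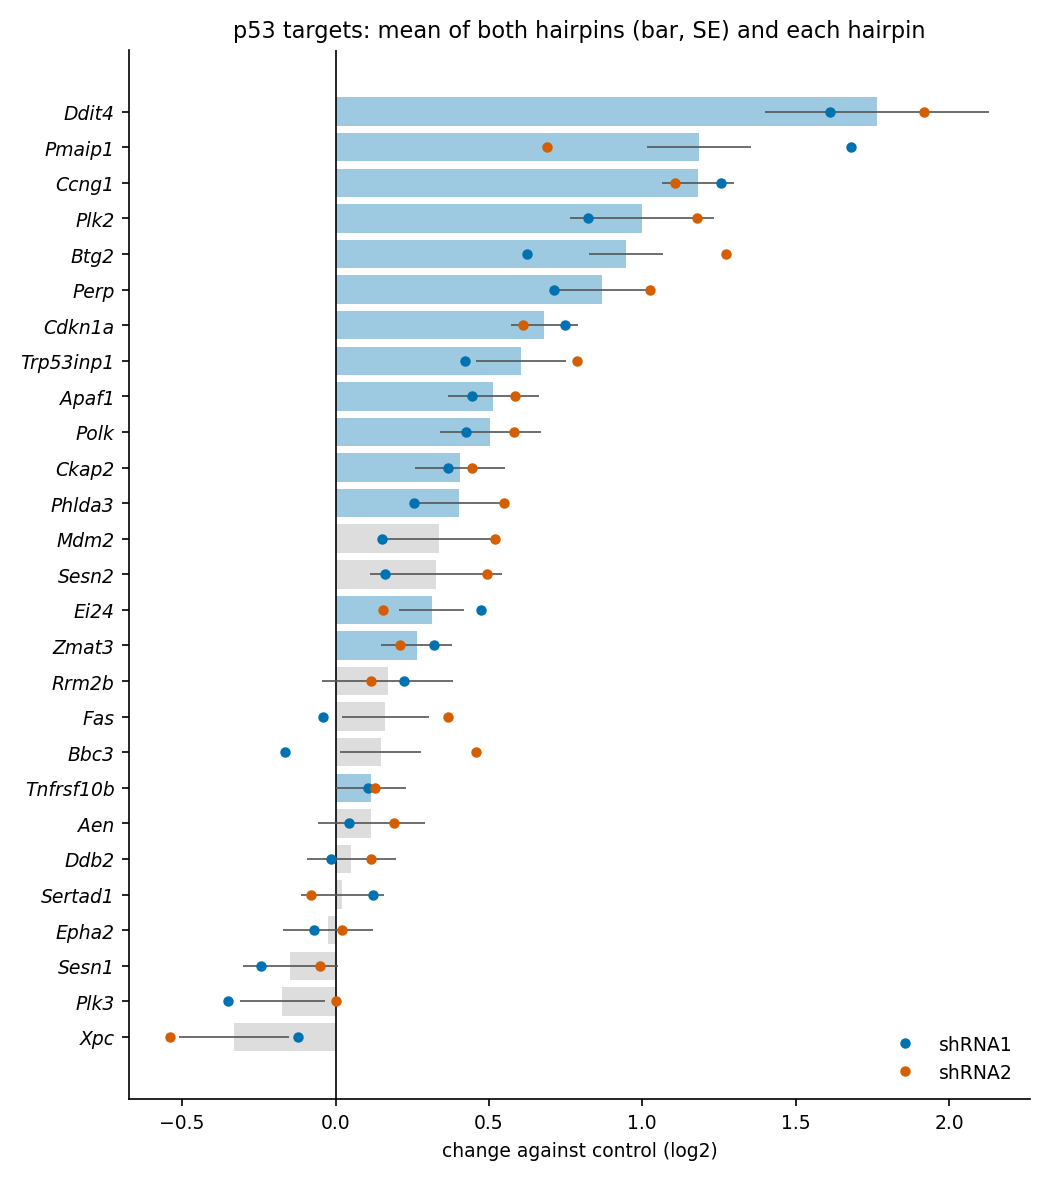
Log2 change against the control hairpin of each measured member of the p53 target list, as the mean of both hairpins (bar, with SE) and with shRNA1 or shRNA2 (points). Blue bars are members whose 4 knockdown arrays lie all above the controls and grey bars are members whose arrays overlap. Of the 27 members, 23 have a bar to the right of 0, the longest being that of Ddit4 at 1.77. Ddit4 is also on the list of glycolysis and hypoxia genes.

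The cell-cycle genes near these targets moved in both directions. Rb1, the retinoblastoma protein that holds back entry into S phase, was at 5.83 and 5.77 on the control arrays, 6.73 and 6.66 with shRNA1, and 6.75 and 7.11 with shRNA2. It was higher on every knockdown array, by 1.01 or 2.02-fold (adjusted p = 0.0179 and 0.152). Ccnd2, cyclin D2, was at 9.15 and 9.19 on the control arrays, 8.36 and 8.37 with shRNA1, and 8.07 and 7.96 with shRNA2. It fell by 0.98 in the 6-array fit (adjusted p = 0.0081 and 0.0758), and the mean of its 7 probe sets gave -0.90. Over 26 measured cyclins, kinases and inhibitors of G1 phase, 2 were called higher and 1 lower, against 0.331% and 0.105% of all genes. Without overlap, 5 were higher and 7 lower, against 9.53% and 10.6% of all genes. The median change was -0.06. The inhibitor Cdkn2b (0.67, adjusted p = 0.0581 and 0.12) and the kinase Cdk6 (-0.65, adjusted p = 0.238 and 0.401) did not pass, and cyclin D1 overlapped (-0.01). Of 32 genes of replication and mitosis, none was called, and their median was -0.02.

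Some rises of the 6-array fit lay outside the p53 and cell-cycle lists. Gpx3, a secreted glutathione peroxidase, was at 6.34 and 6.18 on the control arrays, 7.45 and 7.23 with shRNA1, and 7.34 and 7.09 with shRNA2. Its hairpin means were close and apart from the control, and it rose by 1.02 or 2.02-fold (adjusted p = 0.0179 and 0.0707). The small heat shock protein gene Cryab was at 5.75 and 5.51 on the control arrays, 7.22 and 7.26 with shRNA1 and 6.43 and 6.61 with shRNA2. It rose by 1.25 on the probe set used (adjusted p = 0.00575 and 0.152), but by 0.65 as the mean of its 3 probe sets. Gpx3 is not on the list of oxidative and detoxifying enzymes. Of the 26 measured members of that list, Dcxr and Ephx1 were called, both higher. Over all genes, 0.331% were called higher in the 6-array fit. The median of the list was 0.00. Cryab is not on the heat shock list, of which no gene of 15 was called. The median of that list was -0.08, and 4 were lower without overlap, where 10.6% of all genes were.

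The metallothioneins Mt1 and Mt2, small proteins that bind zinc and copper, were picked out after their values were seen. Mt1 was at 10.47 and 10.78 on the control arrays, 11.24 and 11.40 with shRNA1, and 11.64 and 11.66 with shRNA2. Mt2 was at 11.04 and 11.16, then 11.70 and 11.77, then 12.21 and 12.22. For both genes the order was control, shRNA1, shRNA2 without overlap, and the rises were 0.86 (adjusted p = 0.034 and 0.401) and 0.87 (adjusted p = 0.016 and 0.616). The probe set of Mt1 is of a kind that can bind transcripts of related genes, so the values of the neighbours may not be independent. The window before the Mt2 start, chr8:94172368-94172617 on the plus strand, is shown with the core of the metal response element, TGCNCNC on either strand, in capitals.
Mt2: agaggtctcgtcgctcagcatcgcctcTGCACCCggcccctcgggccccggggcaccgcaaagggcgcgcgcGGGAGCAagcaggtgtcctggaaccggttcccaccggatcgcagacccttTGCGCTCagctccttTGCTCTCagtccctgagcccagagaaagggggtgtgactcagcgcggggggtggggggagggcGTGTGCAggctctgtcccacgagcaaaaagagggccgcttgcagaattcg

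The window held 5 matches, 3 on the plus and 2 on the minus strand, and the Mt1 window held 1. The motif was not confined to metallothioneins: the window of Pqlc3, another call, held 8 matches and that of Dab2, which was not called, 5. At least 5 matches were found in 0.506% of 9887 genes and at least 1 in 55.5%. This motif was searched only after the metallothioneins had been seen among the calls.

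Further rises named by their size under both hairpins are given here. Sdc4, a heparan sulfate proteoglycan of the cell surface, was at 8.73 and 8.70 on the control arrays, 10.28 and 10.03 with shRNA1, and 10.03 and 9.83 with shRNA2. The lowest knockdown array was over 1 log2 unit above the controls, and the rise was 1.33 or 2.52-fold (adjusted p = 0.00575 and 0.0882). S100a6, a calcium-binding protein, went from 8.01 and 8.41 to between 9.24 and 9.76, a rise of 1.27 (adjusted p = 0.00685 and 0.314). Ptp4a3, a protein tyrosine phosphatase, rose by 1.01 (adjusted p = 0.0392 and 0.0917), but by 0.55 as the mean of its 2 probe sets. Pqlc3 rose by 0.90 (adjusted p = 0.016 and 0.0955) and Cox6b2, a testis form of a cytochrome c oxidase subunit, by 0.93 (adjusted p = 0.0384 and 0.119).

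The antigen-presentation genes Tap1 and Tapbp, which load peptides onto class I molecules, were also among the calls and were named after their values were seen. Tap1 was at 4.81 and 5.10 on the control arrays and 5.57 to 5.91 on the knockdown arrays, a rise of 0.82 (adjusted p = 0.0383 and 0.251). Tapbp rose by 0.65 (adjusted p = 0.0402 and 0.42). None of 23 measured genes of the interferon and double-stranded RNA response was called in either fit, and their median was -0.01. Of these, 11 had a mean change above 0, where 49.1% of all genes did. Without overlap, 4 were higher and 2 lower, against 9.53% and 10.6% of all genes. The 4 members with the largest change, Ifitm1, Ifih1, Gbp2 and Bst2, were higher on average, Ifitm1 by 0.63 (adjusted p = 0.0918 and 0.167).

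The 13 genes lower in the 6-array fit included transcription factors and enzymes. Plagl1, an imprinted zinc finger factor, was at 6.65 and 6.95 on the control arrays, 5.07 and 5.19 with shRNA1, and 5.91 and 5.82 with shRNA2. The shRNA1 arrays were lowest, with no overlap, and the fall was 1.30 (change of -1.30; adjusted p = 0.00575 and 0.162), although the mean of its 2 probe sets gave -0.65. Msc, the bHLH repressor musculin, was at 7.87 and 8.15 on the control arrays and 6.31 to 7.17 on the knockdown arrays, a change of -1.30 (adjusted p = 0.0253 and 0.12). Epop, a partner of Polycomb repressive complex 2 and elongin BC, was at 7.79 and 7.49 on the control arrays, 6.80 and 6.33 with shRNA1, and 6.78 and 6.64 with shRNA2. Its changes with shRNA1 and shRNA2 were nearly equal, -1.07 and -0.93 (adjusted p of the mean = 0.0402 and 0.0917). The sialyltransferase gene St6gal1 changed by -0.93 (adjusted p = 0.034 and 0.257), Vash2, a tubulin carboxypeptidase, by -0.83 (adjusted p = 0.0402 and 0.371), and Crybg3 by -0.76 (adjusted p = 0.0317 and 0.0882).

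For other falls, shRNA1 supplied most of the change. Nup210, a nuclear pore glycoprotein, changed by -1.51 under shRNA1 and -0.25 under shRNA2 (mean of -0.88; adjusted p = 0.034 and 0.12). Hal, the histidine ammonia-lyase, changed by -1.03 and -0.44 (adjusted p = 0.0402 and 0.12). Of the 54 genes, 8 also differed between shRNA1 and shRNA2 in the 6-array fit, where 0.299% of all genes did; 4 of the 54 had control and knockdown arrays that overlapped, namely AF067061, Arg2, Cacna2d2 and Mcrs1, the last 3 named after their values were seen. Mcrs1 was at 8.96 and 9.23 on the control arrays, 7.79 and 7.69 with shRNA1, and 9.05 and 9.02 with shRNA2, so that only shRNA1 lay apart.

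As a list, regulators of pluripotency stayed close to control levels, and few were called. Of 26 measured genes of naive and core pluripotency, 1 was called, lower in the 6-array fit, where 0.105% of all genes were. This gene, Gbx2, a homeobox factor of the naive state, was at 8.78 and 8.84 on the control arrays. It was at 7.81 and 7.47 with shRNA1, and 8.46 and 8.28 with shRNA2. All knockdown arrays were lower, and it fell by 0.81 (adjusted p = 0.0402 and 0.114). The median of the list was -0.04, and Nanog changed by 0.01. Otx2, a homeobox factor of the formative and primed state, was at 8.17 and 8.26 on the control arrays, 9.38 and 9.81 with shRNA1, and 8.63 and 8.92 with shRNA2. The rise was 0.97 (adjusted p = 0.0392 and 0.0917). Otx2 was the only call of 13 measured formative and primed regulators, where 0.331% of all genes were called higher in the 6-array fit. Their median change was 0.15, with 4 higher and 2 lower without overlap, against 9.53% and 10.6% of all genes. Foxd3, on both this and the naive list, was lower on all 4 knockdown arrays without passing (-0.44, adjusted p = 0.292 and 0.483). On the day 4 arrays the means were 10.53 for Otx2 and 4.69 for Gbx2, further from the control in the same direction. Neurod1, a neuronal bHLH factor, was at 6.61 and 6.64 on the control arrays and 7.17 to 8.47 on the knockdown arrays, a rise of 1.16 (adjusted p = 0.0402 and 0.11), whereas its day 4 mean was 5.67. Hormad1, a meiotic chromosome axis gene, rose by 0.88 (adjusted p = 0.0402 and 0.0955). Lists of endoderm, neural, mesoderm and trophoblast genes had medians of 0.02, 0.05, -0.01 and 0.14. In the 6-array fit, 2 neural genes were called higher, Otx2 and Neurod1, and 1 mesoderm gene lower, Msc. No endoderm or trophoblast gene was called. Over all genes, 0.331% were called higher and 0.105% lower in that fit.

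Several lists leaned to one side with few or no calls. Of 29 epithelial junction and keratin genes, 25 had a mean change above 0, where 49.1% of all genes did. Without overlap, 8 were higher and 1 lower, against 9.53% and 10.6% of all genes. In the 6-array fit 1 was called, Sdc4, where 0.436% of all genes were. The median was 0.19. Desmoplakin (Dsp) was 1.02 ± 0.25 (SE) higher without passing either fit (adjusted p = 0.179 and 0.283), from 4.97 and 5.77 on the control arrays to 6.09 to 6.75. The mean of its 3 probe sets gave 0.60. Of 17 cholesterol synthesis genes, 3 had a mean change above 0, where 49.1% of all genes did, but none was called in either fit. With the replicate number as a block, the 6-array fit called 3, all lower, where 1.94% of all genes were called. Without overlap, 9 were lower and 0 higher, against 10.6% and 9.53% of all genes. After repeated quantile normalization, 7 were lower and 1 higher (1296 and 1422 of all 12393 genes). Hsd17b7, a sterol reductase, was at 7.15 and 7.11 on the control arrays and 6.44 to 6.68 on the knockdown arrays (-0.57 ± 0.13, SE; adjusted p = 0.0615 and 0.21). The median of that list was -0.30, with -0.36 under shRNA1 and -0.13 under shRNA2. It was -0.18 when a gene was taken as the mean of its probe sets.

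In the list of glycolysis and hypoxia genes, 25 of 29 had a mean change above 0 (49.1% of all genes did) and the median was 0.31. No gene was called in the 8-array or the 6-array fit, neither of which holds a replicate block. Without overlap, 3 were higher (10.3% of the list, against 9.53% of all genes). The members' median relative to the control mean was -0.18 and 0.18 on the control arrays, 0.03 and 0.67 with shRNA1, and 0.06 and 0.52 with shRNA2. In each group the array numbered 2 was the higher, and the lower knockdown array of each hairpin lay between the controls, while each knockdown array lay above the control array of its own number. Bnip3, a mitophagy gene induced in hypoxia, was at 7.55 and 9.31 on the control arrays and 9.16 to 11.13 on the knockdown arrays, so that its groups overlapped (1.64 ± 0.64, SE; adjusted p = 0.35 and 0.549). With the replicate number as a block, the 6-array fit called 8 of the 29, all higher, where 1.94% of all genes were called. Bnip3 was among them (adjusted p = 0.000136), but did not pass the 8-array fit with the block (adjusted p = 0.0623). No label says that the numbers pair the samples.

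**Figure D4:**
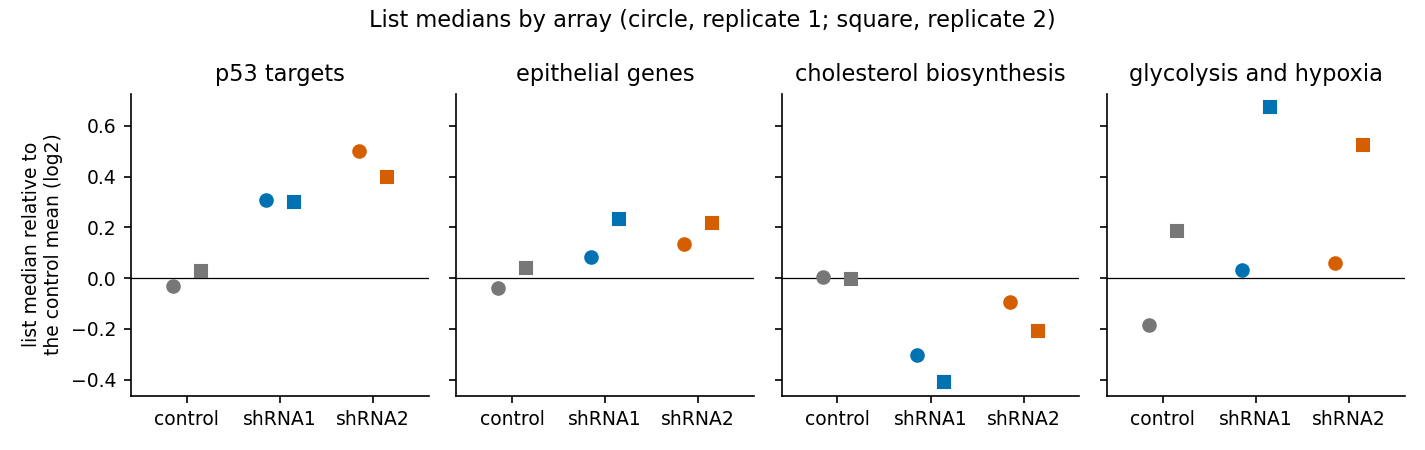
Median over the members of selected gene lists on each of the 6 arrays, as log2 expression relative to the mean of the control arrays. Circles are replicate 1 and squares replicate 2. The p53 targets sit at 0.30 to 0.50 on all 4 knockdown arrays, while the glycolysis and hypoxia genes split by array within every group.

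**Figure D5:**
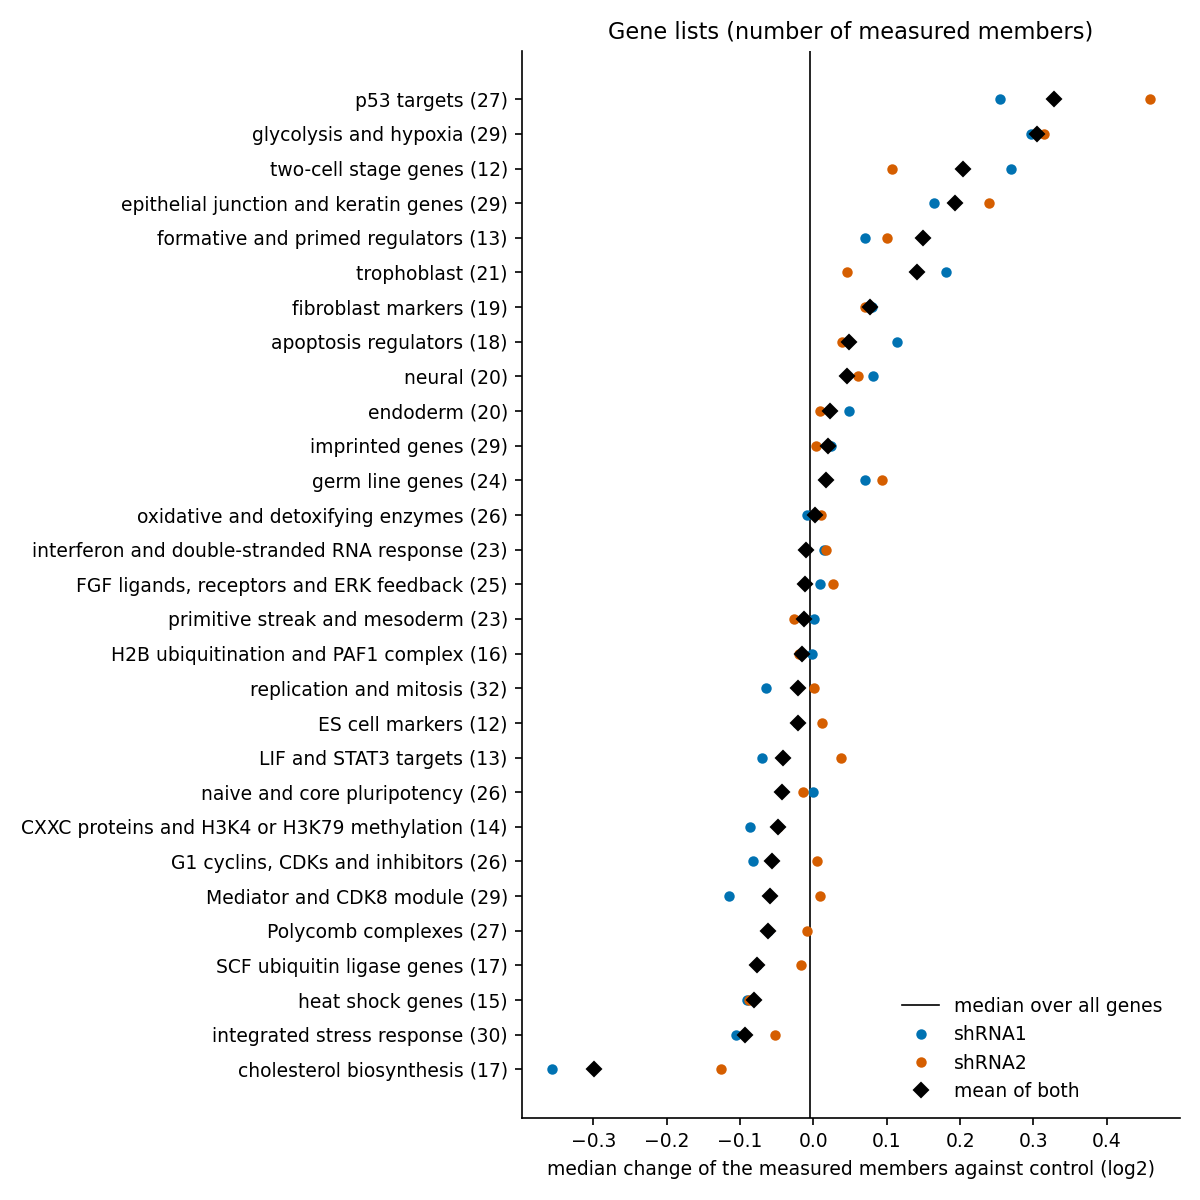
Median log2 change of each of the 29 gene lists, with a vertical line at the median over all genes, for the mean of both hairpins (diamonds) and for each hairpin (circles, hidden where they coincide). The p53 targets (0.33), glycolysis and hypoxia genes (0.31) and cholesterol synthesis genes (-0.30) lie furthest from 0, and the lists of H2B ubiquitination, CXXC and Polycomb genes lie between -0.02 and -0.06.

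The machinery around Fbxl19 itself changed little. Of 16 genes of H2B ubiquitination and the PAF1 complex, none was called and the median was -0.02. Rnf20, the H2B ligase, was at 7.37 and 7.83 on the control arrays and 7.41 to 7.74 on the knockdown arrays, which lay between the controls (-0.01 ± 0.19, SE). The deubiquitinase Usp22 was at 6.26 and 6.56 on the control arrays and 5.58 to 6.18 on the knockdown arrays (-0.58 ± 0.15, SE; adjusted p = 0.13 and 0.31). The H2B deubiquitinase Usp7 had a change of -0.37, and neither passed. Of 14 CXXC proteins and H3K4 or H3K79 methylation genes, none was called, and the related CXXC protein Kdm2b had a change of -0.04 ± 0.14 (SE). Of 27 Polycomb genes, Epop alone was called, lower in the 6-array fit, where 0.105% of all genes were. Without overlap, 5 were lower (10.6% of all genes were), and the median was -0.06. Rnf2, the catalytic subunit of repressive complex 1, changed by -0.31 without passing (adjusted p = 0.294 and 0.521). None of 29 Mediator and 17 SCF ligase genes was called, with medians of -0.06 and -0.08.

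Because the targeted protein binds CpG-rich DNA, CpG dinucleotides were counted in the same 250-base windows. The median over 9887 genes was 15, with quartiles of 7 and 22. The 30 higher calls of the 6-array fit had a median of 14.5 and the 9 lower calls of 19. Fgf18 (37 CpG, chr11:33147401-33147650, minus strand) and Usp17la (1 CpG, chr7:104856766-104857015, plus strand) lie outside the quartiles of 7 and 22. They are the called genes with the largest fall and the smallest adjusted p, respectively, and are shown with CpG in capitals.
Fgf18: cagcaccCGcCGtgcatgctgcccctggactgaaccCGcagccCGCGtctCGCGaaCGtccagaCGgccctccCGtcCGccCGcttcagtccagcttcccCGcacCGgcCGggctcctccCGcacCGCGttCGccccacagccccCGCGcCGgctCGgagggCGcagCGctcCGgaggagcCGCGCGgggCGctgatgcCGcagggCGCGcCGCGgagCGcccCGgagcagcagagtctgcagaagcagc
Usp17la: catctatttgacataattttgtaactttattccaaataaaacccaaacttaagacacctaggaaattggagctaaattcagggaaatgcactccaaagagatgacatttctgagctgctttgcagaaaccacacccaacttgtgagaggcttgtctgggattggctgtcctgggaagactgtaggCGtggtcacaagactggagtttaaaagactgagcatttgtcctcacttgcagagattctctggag

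From the genes with the fewest CpG to those with the most, in 4 classes of 2708, 2516, 2252 and 2411 genes, the median change was 0.03, -0.01, -0.02 and -0.04. The share of genes higher on all knockdown arrays went from 11.4% to 10.6%, 8.75% and 7.13%, and the share lower on all of them from 6.06% to 11.8%, 11.6% and 14.0%. In the class with the most CpG, the control arrays lay at -0.07 and 0.07 relative to their mean and the knockdown arrays at -0.05 to -0.02. The knockdown medians of that class thus lay between the control arrays. In the class with the fewest CpG, the control arrays lay at 0.03 and -0.03 and the knockdown arrays at 0.00 to 0.05. There both shRNA1 arrays (0.05 and 0.04) and shRNA2 replicate 1 (0.05) lay above the controls, and shRNA2 replicate 2 (0.00) between them. The gradient was not tested against the spread between the control replicates.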

How the data were processed

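Gene expression was measured on Affymetrix mouse arrays, per the series' design text, although the labels name a Cy3 dye. The deposited values are log2 expression per probe set, which the authors obtained with RMA per the submitters' processing notes. Neither the version of RMA nor a joint normalization of all arrays is stated in the sources used here. The table held 22690 probe sets: 64 array controls, 20380 with a single symbol in the platform table, 691 with several symbols and 1606 without one. Symbols were matched by gene identifier to RefSeq (GRCm38.p6) for 20351 probe sets. Each gene was represented by its brightest probe set, judged by the mean of all 8 arrays, which left 12393 genes, so that levels are not comparable between genes.

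A mean for each of 4 groups was fitted by lmFit and eBayes (limma 3.58.1, R 4.3.3) to all 8 arrays, leaving 4 residual degrees of freedom. The control was compared with the mean of both hairpins and with each hairpin, and the hairpins with each other. Calls needed a Benjamini-Hochberg adjusted p under 0.05 over all genes. A single adjusted p for a gene is from this model, unless a replicate block is named. Where 2 follow a gene, the first is from the 6-array fit and the second from this model. The alternative fit to the 6 compared arrays leaves 3 residual degrees of freedom. Errors are moderated SEs of the 8-array fit, with n = 2 arrays a group. The script was tested on simulated data.

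The genes, the 29 gene lists and the tests were chosen with earlier results of these data known. Named were all called genes, then up to 12 rises and 12 falls of the 6-array fit without overlap and with the largest smaller change of the hairpins, and up to 4 members a list with the largest change, plus genes of the H2B, CXXC and Polycomb lists. Several genes named beyond this are said to be so. Others, such as Limch1 and Polk, are not marked, and Trp53inp1 and Mdm2 lay outside the 4 largest changes of the p53 list. Predicted genes were counted and not named. Lists were described by counts and medians and not tested. Promoter windows came from RefSeq, with up to 13 bases allowed between p53 half-sites. The alternatives were other probe set rules, leaving out the dimmest 30% of genes, trend and robust eBayes, the 6 arrays alone, array weights, repeated quantile normalization, centring, a 1.5-fold minimum, a block for the replicate number and omission of each array in turn. Precision is limited by the number of arrays.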

Additional observations from a re-analysis of the deposited data

Results flagged for a closer look

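The hairpins gave unequal changes for 2 of the 9 genes called for their mean. For AF067061 the difference of shRNA2 from shRNA1 was -3.20 on the log2 scale (adjusted p = 0.000186 in limma's test of shRNA2 against shRNA1). For Usp17la the difference was -2.64 (adjusted p = 0.00218). Over all genes, 0.105% passed this test.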

How the results depend on the processing

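For the mean of both hairpins, the count of 9 calls became 54 with the 6 compared arrays alone, 5 with array weights and 1 with a minimum change of 1.5-fold, and ranged from 0 (without either shControl array) to 54 (without either day 4 array) when 1 array was left out. In the 6-array fit, the count of 54 ranged from 0 (without either shControl array) to 69 when 1 array was left out, and was 35 without shRNA2 replicate 2. These leave-one-out settings of the 6-array fit, its block and the list counts after repeated normalization were added after seeing the data. For shRNA2 against shRNA1, 13 calls became 37 with the 6 arrays, 176 with array weights and 2 with the minimum change, and ranged from 2 to 37 when 1 array was left out. For shRNA1 against shControl, 30 calls became 113 with the 6 arrays, 48 with trend and robust eBayes, 50 with repeated quantile normalization and 3 with the minimum change, and ranged from 2 to 113. For shRNA2 against shControl, limma called 0 genes (350 higher and 282 lower at an unadjusted p of 0.05), 12 with the 6 arrays, 2 with trend and robust eBayes and 2 with repeated normalization, with a range of 0 to 12. The 54 calls with either day 4 array left out follow from the construction, since the remaining array then adds no residual degree of freedom; the cause of the other differences was not tested.

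With the replicate number as a block, the count for both hairpins was 22 (19 higher and 3 lower), including all 9 genes, and 241 (1.94% of all genes) in the 6-array fit, including all 54. The latter held 8 of the 29 glycolysis and hypoxia genes, all higher, among them Bnip3 and Ddit4 (adjusted p = 0.000136 for each), Adm (adjusted p = 0.0121) and Ndrg1 (adjusted p = 0.0278), and 9 of the 27 p53 targets. Ddit4 is on both lists and counts in each. Bnip3 and Ddit4 did not pass the 8-array fit with the block (adjusted p = 0.0623 and 0.071). It was 8 for shRNA2 against shRNA1 and 49 for shRNA1. The labels do not say that the numbers pair the samples. The differences between replicates 2 and 1 correlated across genes with r = 0.504 between the hairpins, 0.261 between shControl and shRNA1 and 0.226 between shControl and shRNA2; with only 2 numbers, the arrays were taken to share a number only.

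No called gene changed sign. Over single genes and settings, 2624 values kept their side of the threshold, 82 came to pass it and 65 no longer did. Of the 2624, 78 had the opposite sign, in 36 genes called in neither fit (Rnf20 was -0.01 in the fit to all arrays and 0.22 without shControl replicate 2). Of the list medians, 378 moved by less than the spread between replicates and 28 by more, and 34, in 15 lists with medians of at most 0.08 in size, changed sign. The 2 control arrays enter every comparison with shControl, so each call against it rests on both.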
